A study of Mus musculus with 9 samples.

Results

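The 10 genes described here are the muscle atrophy ubiquitin ligases Fbxo40, Fbxo32, Trim63, Fbxo30 and Trim32, the FOXO transcription factors Foxo1, Foxo3 and Foxo4, and the regulators Klf15 and Sesn1. They were picked by name from the 55536 genes of the count table, and all 10 passed the low-count filter that left 15720 genes for testing. Fbxo40 headed the choice because it was much higher in knockout cells, so its values against floxed cells are given as a description with no test. The other members were chosen for their role, with results of these data already known.

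The cells were primary murine myoblasts, proliferating cells that give rise to muscle fibres, and all of them carried a floxed Uqcrfs1 gene, which encodes the Rieske iron-sulphur protein of respiratory complex III. The 3 groups of 3 libraries were knockout cells (adenoviral Cre) treated with 7.5 µM oxybutynin, a muscarinic receptor antagonist, knockout cells with the vehicle DMSO, and floxed cells (adenoviral GFP) with DMSO. Flasks were seeded 72 h after the virus, drug or vehicle was added 24 h later, and the cultures were kept for 5 days. No floxed cells with oxybutynin were among the libraries, so whether the drug acts differently by genotype could not be tested, and genotype cannot be told apart from the virus that was given.

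Ubiquitin ligases attach ubiquitin to chosen proteins and so mark them for the proteasome. In wasting muscle, FOXO factors that escape phosphorylation by AKT enter the nucleus and switch on ligase genes, of which Fbxo32 (atrogin-1) and Trim63 (MuRF1) are the textbook markers of atrophy. Insulin and IGF signalling holds FOXO factors back through AKT, while glucocorticoids act through their receptor and Klf15 to favour protein and amino acid breakdown.

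Knockout vehicle and floxed vehicle cells differed in the members in both directions, and genotype and virus cannot be told apart in this. Fbxo40 and Klf15, both higher in knockout cells, are given with no test. Fbxo32 (2.98-fold lower) and Fbxo30 (3.37-fold lower) fell most, Foxo1 fell by less (1.30-fold lower), Trim32 rose (1.28-fold), and Fbxo40 and Klf15 stood far higher in knockout vehicle than in floxed vehicle cells, Fbxo40 by 9.65-fold. Trim63, Foxo3, Foxo4 and Sesn1 were not called. Trim32, Foxo3 and Foxo4 depended on a correction for GC content and exon length, described with each gene: under it Trim32 was not called (log2 fold change -0.08, adjusted p = 0.349), and Foxo3 (-0.49) and Foxo4 (-0.59) were called lower. Oxybutynin changed none of the 10 at an adjusted p under 0.05 in the fit of all 9 libraries.

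Library totals ran from 19604971 to 26226949 counts. Uqcrfs1 held 46 to 71 counts in the 6 knockout libraries against 1539 to 1881 in the 3 floxed ones, as the labels say. Of the markers that define the labelled cell type, 10 of 11 passed the low-count filter, with Pax7 at 420 ± 12.4 CPM (counts scaled to a common library size) in knockout oxybutynin, 385 ± 12.6 in knockout vehicle and 321 ± 4.19 in floxed vehicle (SD, n = 3 each). Pax7 was called higher in knockout vehicle than in floxed vehicle cells (log2 fold change 0.26), while 3 of these markers were called lower: Cdh15 (103 ± 14.1 CPM against 190 ± 15.3, -0.88), the receptor gene Fgfr4 (19.3 ± 1.66 against 32.3 ± 0.747, -0.75) and Myf5 (44.8 ± 3.01 against 58.5 ± 2.6, -0.39). With the dependence on GC content and exon length taken out Pax7 was called lower (-0.24) and Myf5 higher (0.34), when the median of all genes was -0.13. The summed level of 20 markers of differentiated muscle was 5770 to 6580 CPM in knockout oxybutynin and 6410 to 6870 in knockout vehicle, against 12500 to 14500 in floxed vehicle, so cells further along in differentiation and more muscle RNA per cell cannot be told apart here. The sum is not scaled to length, and the long titin gene Ttn made up 36.5 to 41.0%, 31.6 to 44.5% and 55.5 to 55.8% of it in these groups; the other 19 summed to 3620 to 3880, 3730 to 4700 and 5580 to 6380 CPM. Of the 20, 13 were called lower in knockout vehicle cells, and 4 were called higher: Acta1 (1240 ± 187 CPM against 711 ± 43.6 in floxed vehicle, log2 fold change 0.80), Ckm (1.30), Actn2 (0.77) and Tnni1 (0.29). Log2 fold changes also followed exonic GC content over 12976 protein-coding genes, with a Spearman correlation across genes, which are not independent replicates, of 0.56 for knockout against floxed vehicle and 0.71 for oxybutynin against vehicle in knockout cells. Knockout vehicle replicate 3 lay nearest the oxybutynin libraries (Pearson r of log2 CPM across genes 0.992 to 0.993) and replicate 2 nearest the floxed ones (0.951 to 0.953), so results that rest on either are also given without it. Whether the 3 libraries of a group came from separate cultures or animals is not stated in the labels. The p-values therefore rest on library-to-library spread alone, and that spread may be technical.

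Promoter windows from RefSeq (GRCm38.p6, 250 bases before to 50 after a start site, both strands searched) were matched for 8 of the 10 members, with 10 windows in all. The windows of Fbxo40 and Klf15 are shown because these genes had the largest differences, and that of Trim63 because it carries the letters of a FOXO site although the gene was not called. Capitals mark a FOXO motif (TGTTTAC), a glucocorticoid receptor half-site (TGTTCT or its reverse complement AGAACA) or an E-box (CAGCTG), the sequence bound by myogenic factors.
Trim63, chr4:134314870-134315169, + strand: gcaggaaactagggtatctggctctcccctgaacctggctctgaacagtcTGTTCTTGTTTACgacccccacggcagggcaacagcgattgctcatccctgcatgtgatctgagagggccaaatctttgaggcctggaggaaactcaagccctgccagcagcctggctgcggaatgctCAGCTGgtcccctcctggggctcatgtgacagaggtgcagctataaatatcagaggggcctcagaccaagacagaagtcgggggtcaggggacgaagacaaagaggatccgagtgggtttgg
Fbxo40, start at the outer end of the gene, chr16:36990418-36990717, - strand: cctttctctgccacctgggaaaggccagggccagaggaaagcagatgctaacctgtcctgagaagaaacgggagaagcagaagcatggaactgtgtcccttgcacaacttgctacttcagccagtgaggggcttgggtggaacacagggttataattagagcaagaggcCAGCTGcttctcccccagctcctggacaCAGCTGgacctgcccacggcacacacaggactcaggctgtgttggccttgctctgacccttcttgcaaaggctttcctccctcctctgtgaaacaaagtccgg
Fbxo40, start inside the gene, chr16:36979087-36979386, - strand: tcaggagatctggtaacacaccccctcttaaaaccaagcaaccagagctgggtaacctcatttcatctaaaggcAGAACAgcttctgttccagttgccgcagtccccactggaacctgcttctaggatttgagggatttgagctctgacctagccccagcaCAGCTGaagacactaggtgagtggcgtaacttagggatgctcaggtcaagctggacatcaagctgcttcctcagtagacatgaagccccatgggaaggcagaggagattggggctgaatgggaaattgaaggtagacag
Klf15, chr6:90462326-90462625, + strand: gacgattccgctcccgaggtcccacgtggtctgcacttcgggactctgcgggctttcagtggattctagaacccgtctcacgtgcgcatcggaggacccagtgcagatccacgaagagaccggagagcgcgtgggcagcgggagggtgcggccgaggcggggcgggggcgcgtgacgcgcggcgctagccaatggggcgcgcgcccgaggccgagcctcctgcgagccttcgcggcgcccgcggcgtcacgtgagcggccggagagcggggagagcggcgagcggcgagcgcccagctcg
In Trim63 the half-site letters begin 200 bases and the FOXO letters 194 bases before the start, directly next to each other, and an E-box lies 72 bases before it. The outer Fbxo40 window holds an E-box 81 and another 53 bases before the start, and the inner one holds an E-box at 89 and the half-site at 176 bases before its own start. The Klf15 window has none of these letters. FOXO letters were found in 2 of the 10 member windows, those of Trim63 and of 1 start of Sesn1, and in 3.65% of 32851 promoter windows of mouse genes. The E-box stood in 4 of the 10 and in 16.3% of all windows, the half-site in 2 of the 10 and in 19.0%, and the full glucocorticoid receptor element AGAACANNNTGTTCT in none of the 10 and in 0.00913%. The half-site is part of the full element, and a match of letters is a description, not a bound site.

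The members differed widely in level, compared here as CPM per kb of exon. In floxed vehicle cells Foxo3 led with 25.6 ± 0.638 CPM per kb (SD, n = 3), followed by Trim32 at 15, Foxo4 at 13.3 and Fbxo30 at 13, and the last 2 overlapped. Below them came Foxo1 at 8.78, Fbxo32 at 5.78, Sesn1 at 2.03, Trim63 at 0.945, Fbxo40 at 0.322 and Klf15 at 0.074, each separate from its neighbour. In knockout vehicle cells Fbxo40 stood at 3.10 CPM per kb, above Sesn1 (2.30), Fbxo32 (1.94), Klf15 (1.25) and Trim63 (1.16), and the last 4 overlapped each with its neighbour. With oxybutynin the order in knockout cells was the same, and Fbxo30 (2.99) and Fbxo40 (2.98) overlapped as well. In floxed cells the ligase with the highest level per kb was Trim32, then Fbxo30, Fbxo32, Trim63 and Fbxo40; in knockout vehicle cells it was again Trim32, then Fbxo30, Fbxo40, Fbxo32 and Trim63.

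**Figure D1:**
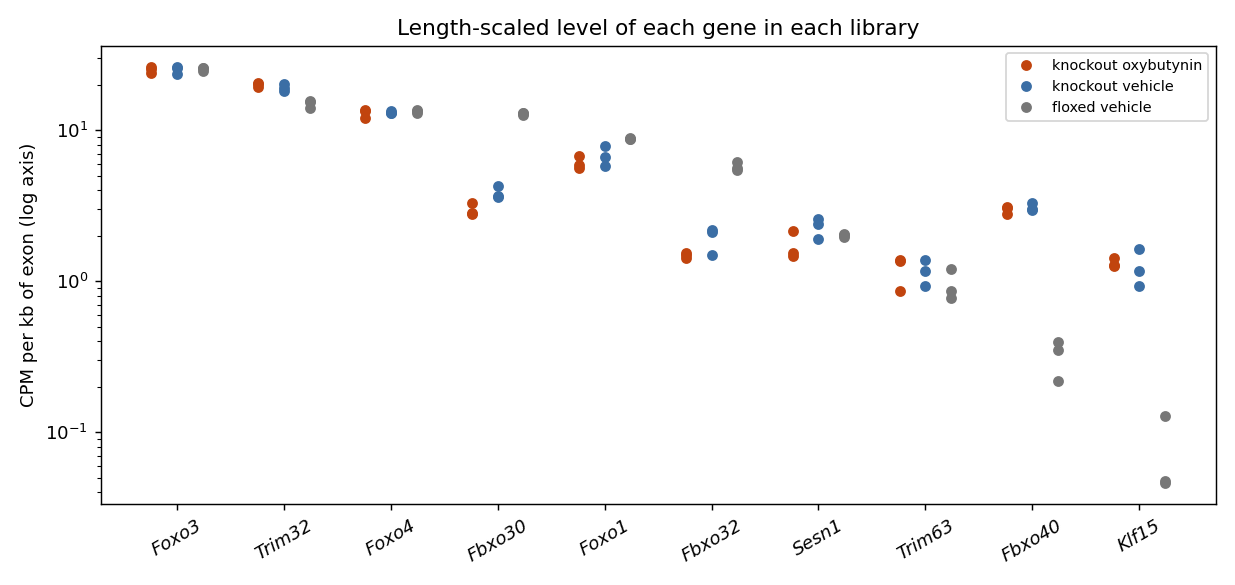
Length-scaled level (CPM per kb of exon, log axis) of each of the 10 genes, with 1 point per library in knockout oxybutynin, knockout vehicle and floxed vehicle. Fbxo40 and Klf15 sit lowest in the floxed libraries, at 0.322 and 0.074 CPM per kb on average, while Foxo3 is near 25 in all 3 groups.

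Fbxo40 encodes a muscle-restricted F-box protein, the substrate-binding part of an SCF ligase that targets the insulin receptor substrate IRS1 in mouse muscle cells (chromosome 16, 36963460 to 36990467, minus strand, GRCm38). It had 15.5, 17.0 and 16.8 CPM in knockout oxybutynin, 18.3, 16.5 and 16.4 CPM in knockout vehicle and 2.20, 1.93 and 1.20 CPM in floxed vehicle libraries, from 375 to 433, 393 to 405 and 27 to 45 counts. Every knockout library was above every floxed one, and the knockout groups overlapped. The log2 fold change was 3.27 ± 0.16 (SE) for knockout vehicle against floxed vehicle and 3.22 ± 0.16 for knockout oxybutynin against floxed vehicle, with no test because Fbxo40 was chosen for this difference. Oxybutynin against vehicle in knockout cells gave -0.05 ± 0.12 (adjusted p = 0.821), with a 95% interval from -0.31 to 0.21. Its reported substrate gene Irs1 averaged 361 ± 21.2 CPM in knockout oxybutynin, 444 ± 64.1 in knockout vehicle and 659 ± 4.90 in floxed vehicle libraries, and fell in knockout vehicle cells by 0.57 ± 0.09 on the log2 scale (adjusted p = 5.17e-05). These are RNA levels, while the ligase acts on the protein, and a link between the 2 genes was not tested.

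Fbxo32, atrogin-1, is another F-box protein, whose reported substrates include MyoD and the translation factor eIF3f (chromosome 15, 58175879 to 58214932, minus strand). Its levels were 9.88, 10.8 and 10.4 CPM in knockout oxybutynin, 15.4, 14.8 and 10.5 CPM in knockout vehicle and 39.5, 38.2 and 43.2 CPM in floxed vehicle libraries. All 6 knockout libraries lay far below the floxed ones, and knockout vehicle replicate 3 lay within the oxybutynin range. Fbxo32 was 2.98-fold lower in knockout vehicle than in floxed vehicle cells, a log2 fold change of -1.58 ± 0.12 (SE, adjusted p = 7.44e-09, edgeR quasi-likelihood test). The gene shares 186 exonic bases with the antisense gene Gm15943 on the other strand, and without the strand setting of the counting, reads of the pair there cannot be told apart.

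Fbxo30, known as MUSA1, is the F-box ligase that BMP signalling keeps low in mouse muscle (chromosome 10, 11281330 to 11298052, plus strand). It had 14.6, 14.8 and 17.2 CPM in knockout oxybutynin, 19.0, 22.2 and 18.8 CPM in knockout vehicle and 68.2, 65.7 and 68.2 CPM in floxed vehicle libraries. The 3 groups did not overlap. Fbxo30 was 3.37-fold lower in knockout vehicle than in floxed vehicle cells (log2 fold change -1.75 ± 0.10, adjusted p = 1.53e-10). Its exons hold 40.3% GC, a value above only 3.95% of protein-coding genes, and once the dependence of every library on GC content and on exon length was taken out (the GC and length trend), the log2 fold change was -0.85 ± 0.07 (adjusted p = 1.35e-08), or -0.72 relative to the median of all genes under that setting.

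Trim63, MuRF1, is a RING ligase of thick filament proteins (chromosome 4, 134315120 to 134329629, plus strand). It had 3.92, 3.86 and 2.47 CPM in knockout oxybutynin, 3.96, 2.64 and 3.32 CPM in knockout vehicle and 3.42, 2.19 and 2.45 CPM in floxed vehicle libraries, from 51 to 98 counts. The groups overlapped. The log2 fold change of 0.30 ± 0.23 between knockout vehicle and floxed vehicle was not called (adjusted p = 0.265, 95% interval -0.19 to 0.80), so a difference was not detectable at this depth, and one of up to 0.80 on the log2 scale is within the interval. With the GC and length trend removed it changed sign, to -0.07 ± 0.22 (adjusted p = 0.804), 0.06 relative to the median of all genes.

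Trim32 is a RING ligase of desmin and actin that is mutated in a human limb-girdle muscular dystrophy (chromosome 4, 65604986 to 65616238, plus strand, within an intron of Astn2 on the other strand and sharing 0 exonic bases with it). It had 66.5, 65.8 and 62.8 CPM in knockout oxybutynin, 65.3, 62.0 and 58.4 CPM in knockout vehicle and 45.3, 50.4 and 49.8 CPM in floxed vehicle libraries. All knockout libraries were above all floxed ones. Trim32 rose by 0.35 ± 0.08 on the log2 scale in knockout vehicle cells (1.28-fold, adjusted p = 0.00134). With the GC and length trend removed the value was -0.08 ± 0.07 (adjusted p = 0.349), 0.05 relative to the median of all genes, so this call and its direction depend on that setting.

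The FOXO factors are the transcription factors that drive Fbxo32 and Trim63 in wasting muscle. Foxo1 (chromosome 3, 52268336 to 52353221, plus strand) had 48.6, 58.9 and 51.3 CPM in knockout oxybutynin, 67.9, 58.0 and 50.3 CPM in knockout vehicle and 77.3, 75.5 and 75.5 CPM in floxed vehicle libraries. Every knockout library was below every floxed one, and the 3 floxed values lay close together while those of knockout vehicle cells spread widely. Foxo1 fell by 0.37 ± 0.10 on the log2 scale in knockout vehicle cells (adjusted p = 0.00447). It shares 674 exonic bases with the antisense gene Gm20402, with the same limit as for Fbxo32.

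Foxo3 (chromosome 10, 42181841 to 42276755, minus strand), the factor best known for switching on autophagy genes in muscle, had 181, 200 and 193 CPM in knockout oxybutynin, 198, 195 and 179 CPM in knockout vehicle and 196, 197 and 188 CPM in floxed vehicle libraries. Foxo4 (chromosome X, 101254528 to 101260873, plus strand) had 47.5, 46.8 and 42.1 CPM in knockout oxybutynin, 46.7, 45.6 and 45.7 CPM in knockout vehicle and 47.3, 45.3 and 47.0 CPM in floxed vehicle libraries. The 3 groups overlapped for both genes. For knockout vehicle against floxed vehicle the log2 fold change was -0.02 ± 0.08 for Foxo3 (adjusted p = 0.803, 95% interval -0.18 to 0.14) and -0.01 ± 0.08 for Foxo4 (adjusted p = 0.888, 95% interval -0.19 to 0.16). Both genes are GC-rich, at 57.7% and 56.4%. With the GC and length trend removed both were called lower, Foxo3 at -0.49 ± 0.09 (adjusted p = 8.39e-05) and Foxo4 at -0.59 ± 0.08 (adjusted p = 3.09e-06), which is -0.36 and -0.46 relative to the median of all genes of -0.13 under that setting. The fourth family member, Foxo6, was near the detection limit, at 1.11 ± 0.190 CPM in knockout oxybutynin, 1.28 ± 0.452 in knockout vehicle and 1.29 ± 0.248 in floxed vehicle cells, and was not called (adjusted p = 0.968).

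Klf15 encodes a zinc-finger factor that glucocorticoids induce in muscle and that drives branched-chain amino acid breakdown (chromosome 6, 90462576 to 90475238, plus strand). It had 3.96, 3.58 and 3.55 CPM in knockout oxybutynin, 3.26, 2.59 and 4.57 CPM in knockout vehicle and 0.358, 0.129 and 0.133 CPM in floxed vehicle libraries. In counts these were 97, 91 and 79 in knockout oxybutynin, 70, 62 and 113 in knockout vehicle and 7, 3 and 3 in floxed vehicle libraries. Knockout and floxed libraries were far apart, and the knockout groups overlapped. The gene passed the low-count filter only through its knockout libraries and so had to differ, and its log2 fold changes against floxed vehicle, 4.09 ± 0.36 for knockout vehicle and 4.18 ± 0.35 for knockout oxybutynin, are given as a description with no test. Since the floxed libraries hold so few counts, the ratio of summed counts scaled to library size is the plainer measure: 17.6 for knockout vehicle over floxed vehicle, with an exact 95% counting interval from 10.1 to 33.5, which covers counting error only.

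Sesn1 encodes sestrin 1, a leucine sensor that restrains mTORC1 through the GATOR complexes and is induced by p53 and FOXO factors (chromosome 10, 41809935 to 41908424, plus strand). It had 5.88, 8.62 and 6.16 CPM in knockout oxybutynin, 9.55, 10.3 and 7.61 CPM in knockout vehicle and 7.82, 8.24 and 8.14 CPM in floxed vehicle libraries. The groups overlapped, and the difference between knockout vehicle and floxed vehicle was not called (log2 fold change 0.18 ± 0.16, adjusted p = 0.319). Its relatives were called in opposite directions. Sesn2 rose in knockout vehicle cells (214 ± 26.3 CPM against 120 ± 2.02 in floxed vehicle, log2 fold change 0.83 ± 0.09, adjusted p = 4.48e-07). Sesn3 fell (55.0 ± 6.20 CPM against 128 ± 7.24 in floxed vehicle, log2 fold change -1.21 ± 0.09, adjusted p = 3.70e-09).

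**Figure D2:**
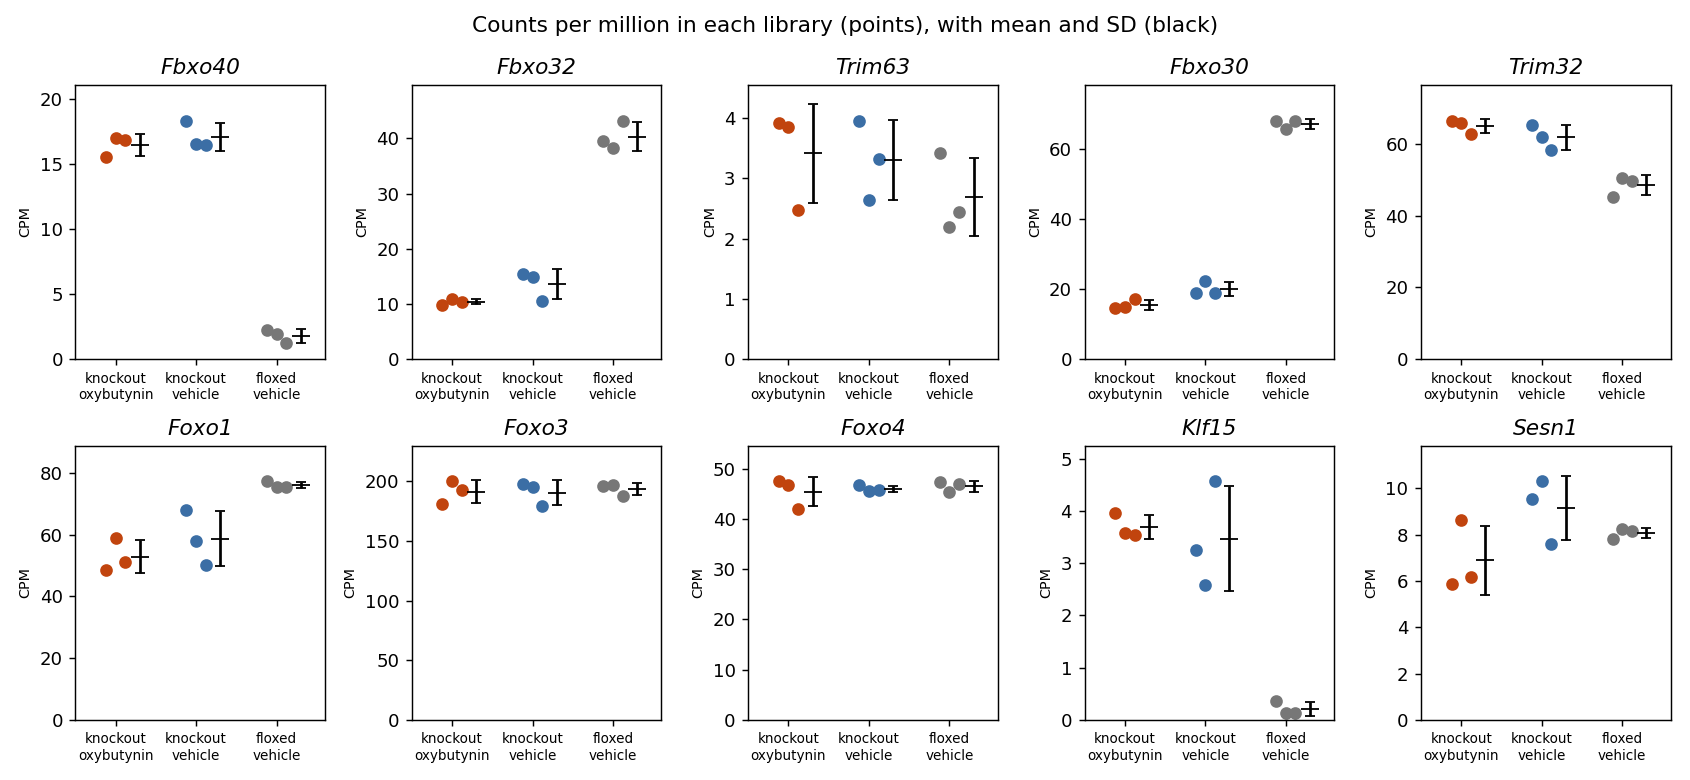
CPM of each of the 10 genes in every library (points, linear axes from 0), with the mean and SD of the 3 libraries of a group in black. Fbxo40 and Klf15 are high and Fbxo32 and Fbxo30 low in all 6 knockout libraries, while Trim63, Foxo3, Foxo4 and Sesn1 overlap between the groups.

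Fbxo40 and Klf15 left aside, 4 of the other 8 members were called at an adjusted p under 0.05 for knockout vehicle against floxed vehicle, or 50%, against 63.3% of all 15720 genes. Trim32 was higher and Fbxo32, Fbxo30 and Foxo1 were the 3 lower, while 29.9% of all genes were called higher and 33.4% lower. The groups did not overlap for 4 of the 8, against 66.7% of all genes. The median log2 fold change of the 8 was -0.015, and that of all tested genes -0.01. As a group these members were called no more often than genes in general. With the GC and length trend removed 0 of the 8 were called higher and 5 lower (Fbxo32, Fbxo30, Foxo1, Foxo3 and Foxo4), against 22.6% and 37.3% of 15714 genes. Of 8 lists of cell type markers, the sum of differentiated muscle moved with Fbxo32 and Fbxo30. Smooth muscle (4 of 7 called higher, 1 lower) moved with Fbxo40 and Klf15. Its sum was 1300 to 1470 CPM in knockout oxybutynin, 1070 to 1400 in knockout vehicle and 676 to 727 in floxed vehicle. Acta2 made up most of it (972 ± 143 CPM in knockout vehicle against 477 ± 23.3 in floxed vehicle). The myoblast sum (5310 to 5530, 4630 to 5470 and 4220 to 4330 CPM in the same order) was also higher in every knockout library. So were the endothelium, leukocyte and adipocyte sums, while the fibroblast and Schwann cell sums overlapped. The part of these lists in the results was not tested. Of the myoblast markers 5 of 10 were called higher and 3 lower, of fibroblast markers 4 of 6 higher and 1 lower, of leukocyte markers 3 of 4, endothelium 1 of 4 and adipocyte 2 of 2 higher, and of Schwann cell markers 0 of 3. Some markers counted as higher were nearly absent from floxed vehicle cells. These were Cnn1 of smooth muscle (0.105 CPM), Mfap5 of fibroblasts (0.211), Csf1r of leukocytes (0.211) and Fabp4 of adipocytes (0.212). They passed the low-count filter only through their knockout libraries and so had to differ, and their calls are no test. Thy1 of fibroblasts (0.451 CPM in floxed vehicle) would not have passed on its floxed libraries alone, and its call is no test either. Among the markers of other cells the summed levels in knockout oxybutynin, knockout vehicle and floxed vehicle were 257 to 293, 289 to 293 and 273 to 292 CPM for fibroblasts (Lum at 0 in every library), 8.94 to 11.1, 8.53 to 9.64 and 4.96 to 6.36 CPM for endothelium, and 17.8 to 20.4, 15.6 to 18.2 and 9.03 to 10.0 CPM for leukocytes. They were 3.59 to 4.24, 2.79 to 4.05 and 1.79 to 2.28 CPM for adipocytes (Lep at 0 in every library) and 6.29 to 7.01, 4.61 to 6.96 and 6.18 to 7.60 CPM for Schwann cells.

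Knockout oxybutynin cells stood against floxed vehicle cells much as knockout vehicle cells did; both comparisons use the same floxed libraries. Here too 4 of the 8 were called, against 71.9% of all genes. Trim32 was higher, against 35.1% of all genes, and Fbxo32, Fbxo30 and Foxo1 lower, against 36.9%, and the groups did not overlap for 4 of the 8, against 78.9%. The log2 fold changes were 0.42 ± 0.08 for Trim32 (adjusted p = 0.000201), -1.96 ± 0.13 for Fbxo32 (adjusted p = 4.14e-10), -2.12 ± 0.10 for Fbxo30 (adjusted p = 1.34e-11) and -0.52 ± 0.10 for Foxo1 (adjusted p = 0.000232). Trim63 (0.36 ± 0.23, adjusted p = 0.168) and Sesn1 (-0.23 ± 0.16, adjusted p = 0.208) were not called, but without oxybutynin replicate 3 Trim63 was called higher (0.55, adjusted p = 0.0435) and without oxybutynin replicate 2 Sesn1 was called lower (-0.42, adjusted p = 0.0299). Foxo3 (-0.02 ± 0.08, adjusted p = 0.854) and Foxo4 (-0.03 ± 0.08, adjusted p = 0.746) were not called either. With the GC and length trend removed, when 62.2% of all genes were called, Trim32 was not (-0.13, adjusted p = 0.139) and Foxo3 and Foxo4 were called lower, at -0.63 (adjusted p = 4.35e-06) and -0.79 (adjusted p = 5.70e-08).

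Oxybutynin against vehicle in knockout cells left every member without a call: 0 of 10 at an adjusted p under 0.05 by edgeR, against 0.0127% of all genes (2 of 15720). At an unadjusted p under 0.05 there were 3 (Fbxo32, Fbxo30 and Sesn1, all lower), against 26% of all genes. DESeq2 called 1, Fbxo30 (-0.38, adjusted p = 0.0296), against 4.75% of all genes, and limma-voom 0. With no low-count filter edgeR called Fbxo30 too (-0.37, adjusted p = 0.0406), against 3.65% of 30103 genes. The median log2 fold change of the 10 was -0.035, and that of all genes -0.003. The groups were separate for 1 member, Fbxo30, which was lower in all oxybutynin libraries, against 22.1% of all genes. Fbxo30 had a log2 fold change of -0.37 ± 0.10 (adjusted p = 0.0755, 95% interval -0.58 to -0.15), Fbxo32 of -0.38 ± 0.13 (adjusted p = 0.108, -0.66 to -0.11) and Sesn1 of -0.41 ± 0.16 (adjusted p = 0.131, -0.74 to -0.08). For Foxo1 it was -0.15 ± 0.10 (adjusted p = 0.374, -0.37 to 0.07).

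The remaining members had log2 fold changes with oxybutynin between -0.05 and 0.09. The 95% intervals were narrow for Foxo3 (-0.15 to 0.17), Foxo4 (-0.19 to 0.16) and Trim32 (-0.10 to 0.24) and wider for Klf15 (-0.38 to 0.55) and Trim63 (-0.41 to 0.53). One library bears on these values: without knockout vehicle replicate 3, which has the lowest Fbxo32, Foxo1 and Sesn1 and the highest Klf15 of its group, 4188 of 16097 genes (26%) were called. Among the members Fbxo32 (-0.54, adjusted p = 0.00408), Fbxo30 (-0.41, adjusted p = 0.0122) and Sesn1 (-0.53, adjusted p = 0.0275) were then called lower. Without knockout vehicle replicate 2, 63 of 16114 genes (0.391%) and none of the 10 were called.

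**Figure D3:**
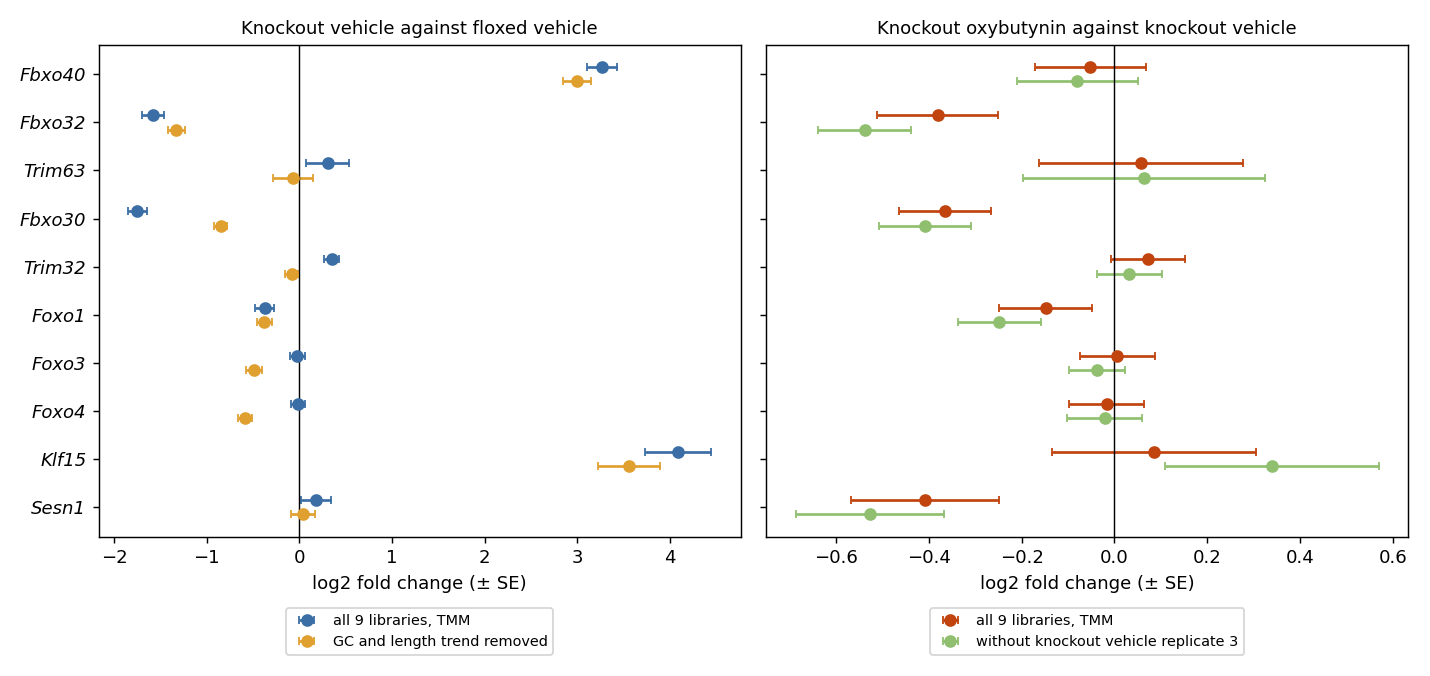
Log2 fold change with its SE for each of the 10 genes, for knockout vehicle against floxed vehicle (left) and knockout oxybutynin against knockout vehicle (right), from all 9 libraries and from 1 alternative each. On the left Trim32, Foxo3 and Foxo4 shift to lower values once the GC and length trend is removed; on the right Fbxo32, Fbxo30 and Sesn1 lie further from 0 without knockout vehicle replicate 3.

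Genes around the members were read from lists chosen with earlier results of these data known, so the shares called in them are a description. They stand against the same 29.9% of all genes called higher and 33.4% called lower in knockout vehicle cells. With the GC and length trend removed these shares were 22.6% and 37.3%, and the median log2 fold change of all genes was -0.13. None of the 20 lists held a gene called with oxybutynin by edgeR in the fit of all 9 libraries. In the insulin and IGF arm upstream of FOXO, 5 of 19 genes were called higher and 8 lower (median log2 fold change -0.18). The PI3-kinase catalytic subunit gene Pik3ca fell by 1.07 ± 0.10 and Rictor, of the mTORC2 complex, by 1.24 ± 0.11, while Irs2 rose by 0.76 ± 0.08 on the log2 scale. Pik3ca was not called with the GC and length trend removed (-0.15). Of 14 regulators of FOXO activity, 11 were called lower and 0 higher (median -0.67), led by the deacetylase gene Sirt1 (-1.55 ± 0.10), the coactivator gene Ppargc1a (-1.25 ± 0.10), Stk3 (-1.29 ± 0.11), a kinase of the Hippo pathway, and the AMPK subunit gene Prkaa1 (-1.0 ± 0.09). With the trend removed the median was -0.37, 9 were called lower and 2 higher, and Prkaa1 was not called.

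Of 22 FOXO target genes outside the members, 12 were called higher and 3 lower in knockout vehicle cells (median log2 fold change 0.40, or 0.27 with the trend removed). Among them were the mitophagy receptor gene Bnip3 (110 ± 14.5 CPM in knockout vehicle against 48.3 ± 1.76 in floxed vehicle, 1.19 ± 0.10 on the log2 scale), the lysosomal protease gene Ctsl (320 ± 10.8 against 167 ± 2.32, 0.94 ± 0.08) and the translation repressor gene Eif4ebp1 (185 ± 27.7 against 89.2 ± 6.79, 1.05 ± 0.10). The 3 lower were Sesn3, described above, Bcl6 (53.3 ± 5.47 CPM against 78.9 ± 0.121 in floxed vehicle, -0.57 ± 0.09), a transcriptional repressor gene, and Cited2 (398 ± 65.8 against 488 ± 9.77, -0.29 ± 0.10). Of the glucocorticoid receptor and its targets, 10 of 13 were called higher and 2 lower (median 0.92, or 0.68 with the trend removed). The clock gene Per1 had 87.2 ± 10.6 CPM in knockout vehicle against 33.2 ± 1.48 in floxed vehicle cells (1.40 ± 0.09), Cebpb 41.1 ± 11.2 against 14.8 ± 1.06 (1.47 ± 0.17) and Klf9, a glucocorticoid-responsive relative of Klf15, 20.9 ± 2.18 against 11.1 ± 0.996 (0.92 ± 0.11). The metallothionein gene Mt2 rose by 1.06 ± 0.12. The 2 lower were the receptor gene itself, Nr3c1 (34.5 ± 3.71 CPM in knockout vehicle against 46.1 ± 1.72 in floxed vehicle, -0.42 ± 0.10, adjusted p = 0.00147), and the myostatin gene Mstn (14.3 ± 1.65 against 21.5 ± 1.62, -0.59 ± 0.12, adjusted p = 0.000318). With the trend removed Nr3c1 was not called (adjusted p = 0.996) and Mstn was called higher (0.51).

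For branched-chain and other amino acid breakdown, 7 of 9 tested genes were called higher and 1 lower (median log2 fold change 0.57). Whether Klf15 acts on these genes in these cells was not tested. The mitochondrial aminotransferase gene Bcat2, a KLF15 target, had 27.8 ± 4.71 CPM in knockout vehicle against 12.7 ± 0.529 in floxed vehicle cells (1.14 ± 0.12), and Gpt2, alanine aminotransferase, had 216 ± 15.1 against 100 ± 3.29 (1.11 ± 0.08). Bckdk, the kinase that inhibits the branched-chain dehydrogenase, rose by 0.99 ± 0.09 and Bckdhb, a subunit of that enzyme, by 1.01 ± 0.13. With the trend removed these 4 were still called higher, no other gene of the list was called, and the median was 0.05. Of 15 genes of the GATOR complexes and leucine sensing, on which sestrins act, 9 were called higher and 3 lower (median 0.24), with the arginine sensor gene Castor1 at 4.88 ± 0.755 CPM in knockout vehicle against 1.24 ± 0.317 in floxed vehicle cells (1.96 ± 0.22). Nprl2 (0.91 ± 0.11) and Wdr24 (0.78 ± 0.11) were higher and Mios (-1.02 ± 0.13) lower, and Wdr24 and Mios were not called with the trend removed.

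Other ligases of muscle were called in both directions, 8 of 19 higher and 7 lower (median log2 fold change 0.03, or -0.11 with 2 higher and 6 lower once the trend was removed). The median of all genes under that setting was -0.13. Fbxl22, an F-box gene of the sarcomeric Z-disc, fell by 1.84 ± 0.20, Wwp1 by 1.00 ± 0.11 and Nedd4 by 0.64 ± 0.08, and Ubr4 rose by 0.51 ± 0.08; Wwp1 and Nedd4 were not called with the trend removed. The MuRF relatives of Trim63 went apart, Trim54 (MuRF3) higher by 0.65 ± 0.11 and Trim55 (MuRF2) lower by 0.45 ± 0.08, although Trim54 was not called with the trend removed (0.08). The F-box genes Fbxo31 (0.65 ± 0.13, adjusted p = 0.000351) and Fbxo21 (0.27 ± 0.09, adjusted p = 0.0124) were called higher, and neither was with the trend removed (0.09 and -0.13). Of 7 genes of the SCF core that F-box proteins join and of its activation by NEDD8, 1 was called higher (Ube2m, 0.52 ± 0.08) and 3 lower (Cul1, -0.87 ± 0.09; Cand1, -0.35 ± 0.08; Rbx1, -0.30 ± 0.10). Only Cul1 of these 4 was called with the trend removed, at -0.50.

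The proteasome and the ubiquitin pool did not move one way. Of 34 proteasome genes 6 were called higher and 12 lower, a median of -0.01 on the log2 scale, with Psme4 (-1.32 ± 0.10) and Psmc6 (-1.0 ± 0.10) lowest by adjusted p and Psmd8 higher (0.68 ± 0.09). Zfand5, which activates the proteasome, was lower (-0.71 ± 0.09) but higher (0.59) with the trend removed. Of 16 genes for ubiquitin and its conjugating enzymes 4 were called higher and 4 lower (median -0.16), among them Ube2d1 (-0.88 ± 0.09) and the ubiquitin-activating enzyme gene Uba1 (0.50 ± 0.08). Of 19 tested genes for reported substrates of the member ligases, 8 were called higher and 5 lower (median 0.22, or -0.10 with the trend removed, when that of all genes was -0.13). These too are RNA levels, while the ligases act on the proteins. Among the 8, Myl2 had 1.18 ± 0.288 CPM in knockout vehicle against 0.166 ± 0.0883 in floxed vehicle cells. It passed the low-count filter only through its knockout libraries and so had to differ, and its call is no test. Mybpc2 was near the detection limit in floxed vehicle cells. It would not have passed the filter on its floxed libraries alone, and its call is no test either. The fast myosin gene Myh4 had 30.3 ± 2.80 CPM in knockout vehicle against 9.74 ± 1.45 in floxed vehicle cells (1.64 ± 0.13), Mybpc2 3.84 ± 0.102 against 0.516 ± 0.135 (2.87 ± 0.24) and Ckm 26.9 ± 5.64 against 10.9 ± 1.13 (1.30 ± 0.14). Myh1 went the other way, at 282 ± 59.3 CPM against 638 ± 50.1 (-1.18 ± 0.12). Ckm and Myh1 also stand in the list of differentiated muscle markers.

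**Figure D4:**
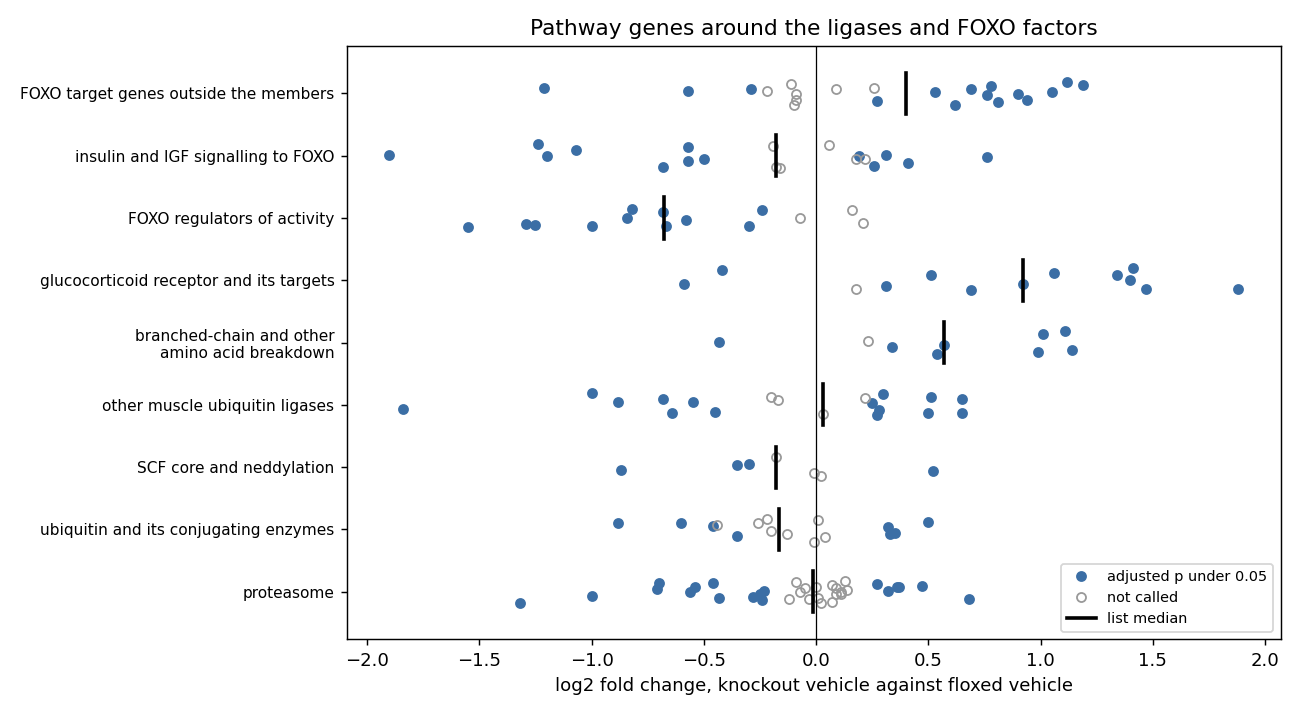
Log2 fold change of each tested gene, knockout vehicle against floxed vehicle, in 9 lists around the ligases and FOXO factors (filled: adjusted p under 0.05; open: not called; bar: list median). The list medians run from -0.67 for regulators of FOXO activity to 0.92 for the glucocorticoid receptor and its targets, with the proteasome at -0.01.

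Among the genes whose course over the 9 libraries was most like that of Fbxo40, by the root mean square difference of centred log2 CPM among 8772 genes that averaged 10 CPM or more, were Ckmt2 (0.14), Ampd3 (0.24), Anpep (0.25) and Dhrs3 (0.26). Ckmt2, mitochondrial creatine kinase, had 54.5 ± 5.43 CPM in knockout oxybutynin, 60.0 ± 3.81 in knockout vehicle and 6.76 ± 1.06 in floxed vehicle cells (SD, n = 3 each). Ampd3, AMP deaminase, had 143 ± 6.04, 141 ± 1.17 and 18.3 ± 1.22 CPM in these groups. Nearest to Klf15 among 8773 genes were Acot2 (0.29), Sh2d6 (0.31), Anpep (0.32), Trib3 (0.34) and Sphk1 (0.34). Acot2, a mitochondrial acyl-CoA thioesterase, had 156 ± 8.95 CPM in knockout oxybutynin, 147 ± 12.6 in knockout vehicle and 10.9 ± 1.16 in floxed vehicle cells. Trib3, a pseudokinase that binds AKT, had 188 ± 13.9, 146 ± 30.5 and 15.2 ± 1.87 CPM in these groups. Likeness over 9 libraries in 3 groups is set mostly by the difference between knockout and floxed cells, and these genes were picked for it.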

How the data were processed

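RNA was prepared with Trizol and a directional NEBNext kit, per the labels' protocols. The authors deposited raw counts, whole numbers for each gene. According to the submitters' processing notes the tools were FastQC, cutadapt, Trim Galore 0.6.0, DESeq2 1.26.0 and STAR 2.7.0e, and the builds GRCm38 and mm10. The counting step, strand setting and annotation release were not given in the sources used here. Every one of the 55536 IDs was found in GENCODE M21 (GRCm38), the source of positions, exon lengths and GC content; 0 columns lacked a sample.

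Counts were tested with edgeR 4.0.16 in R 4.3.3 (filterByExpr, TMM, quasi-likelihood test on 9 libraries in 3 groups, no covariate). Benjamini-Hochberg adjustment ran over 15720 genes, and called means an adjusted p under 0.05. SEs and 95% intervals came from the fit. CPM uses TMM-scaled libraries. Alternatives were DESeq2 1.42.0, limma-voom (limma 3.58.1), other scalings, filters, gene sets and thresholds, fits of 2 groups, removal of a GC and length trend, and leaving out each library. The script was checked on simulated data of 15720 genes. It recovered 66% of 100 genes changed 1.5-fold and 80% of 100 changed 2-fold, with 14 false calls. No replicate pair held the same values.

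Klf15 against floxed vehicle is given with no test, although one was planned, for the reason given with its values. The members and the 20 gene lists were chosen with earlier results of these data known; 10 genes stand in more than 1 list. Named were the members, Uqcrfs1, up to 4 called genes per list with the lowest adjusted p, close relatives, and 5 genes most like Fbxo40 and Klf15. Irs1, Pax7, Fgfr4, Myl2 and, beside counts of 5 or fewer, single genes were named besides this rule after their values were seen. Some genes that the rule names are not reported here.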

Additional observations from a re-analysis of the deposited data

How the results depend on the processing

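No paired analysis was possible because the titles number the libraries through all groups, so the groups share no replicate number. Across 19 alternatives of tool, scaling, filter, genes or libraries, Fbxo32 (log2 fold change -1.64 to -1.33), Fbxo30 (-1.83 to -0.85) and Foxo1 (-0.46 to -0.27) stayed called in their direction for knockout vehicle against floxed vehicle, and Klf15, given with no test, ran from 3.56 to 4.68; a demand for 1.5-fold dropped Foxo1 and Trim32. Calls with oxybutynin in knockout cells (1 gene higher, 1 lower) became 0 and 0 at an adjusted p under 0.01 or with the trend removed, 88 and 659 with DESeq2, 2 and 5 with RLE, 10 and 148 with library totals, 277 and 822 with no filter, 2 and 11 without mitochondrial genes, 2 and 0 with 2 groups, 2 higher with limma-voom and 0 higher with protein-coding genes; leaving out 1 library gave 0 to 1873 higher and 0 to 2315 lower. The 1.5-fold rule left 2604 genes higher for knockout vehicle and 3449 for knockout oxybutynin against floxed vehicle. The values that changed sign were Trim63 and Trim32 with the trend removed and others that were not called. With DESeq2, RLE, library totals, no filter and 2 groups Foxo4 was 0.000886, 0.000777, 0.0225, 0.0363 and 0.0253 for knockout vehicle against floxed vehicle; Foxo3 was 0.0154, 0.0277 and 0.0165 with the last 3. Against floxed vehicle, knockout oxybutynin gave Foxo3 0.034 and 0.0216 and Foxo4 0.0193 and 0.0077 with no filter and 2 groups. With oxybutynin in knockout cells Foxo3 was -0.00466, -0.00471 and -0.0642 with DESeq2, RLE and library totals, and Trim63 -0.0129 and Trim32 -0.000505 with library totals. Removing the trend gave Trim63 -0.0687, -0.0241 and -0.0927 and Trim32 -0.0809, -0.0447 and -0.126 in knockout vehicle against floxed vehicle, oxybutynin against vehicle and knockout oxybutynin against floxed vehicle, and Foxo3 -0.143 and Klf15 -0.0732 with oxybutynin. Leaving out 1 library turned signs in these ranges: Foxo3 -0.0441 to 0.0284 and Foxo4 -0.0341 to 0.0113 in knockout vehicle, Foxo3 -0.0424 to 0.0292 and Foxo4 -0.057 to 0.0295 in knockout oxybutynin against floxed vehicle, and with oxybutynin Fbxo40 -0.0801 to 0.000875, Trim63 -0.0795 to 0.239, Foxo3 -0.0379 to 0.0451, Foxo4 -0.0497 to 0.0363 and Klf15 -0.0907 to 0.34. The cause was not tested. Low counts of Klf15 in floxed cells and of Trim63 limit their precision.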
